A study of Canis lupus familiaris and Felis catus with 4 samples.

Results

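The comparison described here is that of dogs with kidney disease (KD) against dogs with normal renal function (NR) in mature microRNAs (miRNAs) of urinary exosomes (UExos). The KD dogs were 47 animals pooled into 1 library, and the NR dogs were 37 animals pooled into 1 library. An entry is a mature miRNA at 1 place of the mouse genome. The entries compared were those with at least 10 reads summed over the pair of libraries, which took in 100 of the 2031 entries of the table. A further 114 entries had 1 to 9 reads. The 100 entries carried 99.6% of the mature miRNA reads of KD dogs and 99.4% of those of NR dogs, under 90 mature names. The study also sequenced pools of KD and NR cats, and the question it put to the pools was which UExo-derived miRNAs change with renal function. The clinical criteria, breeds, ages and treatments of the dogs are not given in the sources used here. With 1 library per group there was no replicate, and no test between KD and NR dogs was run.

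miRNAs are short non-coding RNAs that pair with messenger RNAs, mainly through their seed at bases 2 to 8, and lower the output of the targeted genes. UExos are small vesicles that cells lining the kidney tubules and the urinary tract shed into urine, and they protect the miRNAs they carry from degradation. miRNAs that mark cell types, such as those of red blood cells, leukocytes and epithelium, show which cells can have contributed to such a pool. In bulk samples of this kind, fewer vesicles of a cell type and fewer copies of a miRNA per vesicle cannot be told apart.

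The reads of both pools were placed on mouse miRNAs, so the sequences are the mouse ones given in the deposited table, on build mm10, written 5′ to 3′ as DNA with the seed in capitals. The first set holds the entries whose share was higher in KD dogs beyond the counting error in every scaling computed, and miR-3107-5p stands beside miR-486-5p because the letters of the pair are identical.
miR-486-5p: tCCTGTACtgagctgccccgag
miR-3107-5p: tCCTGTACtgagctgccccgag
miR-142-5p: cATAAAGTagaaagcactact
miR-146a-5p: tGAGAACTgaattccatgggtt
miR-222-3p: aGCTACATctggctactgggt
miR-182-5p: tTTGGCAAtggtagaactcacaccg
miR-21a-5p: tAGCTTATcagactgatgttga

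The second set holds entries that were lower in KD dogs or differed from a close relative. miR-181a-5p is read from places on chromosomes 1 and 2 with 1 sequence, and miR-181b-5p shares its seed. miR-141-3p and miR-200a-3p differ only by A17C and G22T, counted from the 5′ end with the base of miR-141-3p first.
miR-29a-3p: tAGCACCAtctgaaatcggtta
miR-205-5p: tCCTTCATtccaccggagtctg
miR-470-5p: tTCTTGGActggcactggtgagt
miR-181a-5p: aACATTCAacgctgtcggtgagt
miR-181b-5p: aACATTCAttgctgtcggtgggt
miR-141-3p: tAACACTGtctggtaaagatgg
miR-200a-3p: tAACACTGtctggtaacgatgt

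The third set holds the pair that made up most reads in both pools. They differ by A12T, outside the seed, with the base of miR-10b-5p first.
miR-10b-5p: tACCCTGTagaaccgaatttgtg
miR-10a-5p: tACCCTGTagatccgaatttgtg

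The KD library held 63355 mature miRNA reads and the NR library 20878, a ratio of 3.03. A read was found for 180 entries in KD dogs and 178 in NR dogs. Reads were found in KD dogs alone for 36 entries, with at most 12 reads, and in NR dogs alone for 34, with at most 6. Where an entry has no read, its share is only bounded, at 0.00474% for KD dogs and 0.0144% for NR dogs, which is what 3 reads make up. All values are given as the share of the mature miRNA reads of the library unless another scale is named, and the change is log2 of the share in KD dogs over that in NR dogs. The intervals are 95% exact conditional intervals of a ratio of counts or exact binomial intervals of a share. They cover counting error only, not the difference between animals or the amplification of the libraries.

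The make-up of both pools was set by few miRNAs. miR-10b-5p, encoded in the HoxD gene cluster (chromosome 2, 74726074 to 74726096), held 53.1% of the reads in KD dogs (52.7 to 53.5%) and 57.4% in NR dogs (56.7 to 58.1%). miR-10a-5p of the HoxB cluster (chromosome 11, 96317186 to 96317208) held 17.4% in KD dogs and 17.6% in NR dogs. The summed miR-486-5p and miR-3107-5p entries held 9.85% in KD dogs (9.62 to 10.1%) and 1.41% in NR dogs (1.26 to 1.58%). All other entries together held 19.7% in KD dogs and 23.7% in NR dogs. The 10 most abundant entries took 89.0% of the reads in KD dogs and 87.1% in NR dogs. The plot of the make-up shows that the pair with the miR-486 sequence was the one block with a larger share in KD dogs, while miR-10b-5p and the rest held smaller shares.

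**Figure D1:**
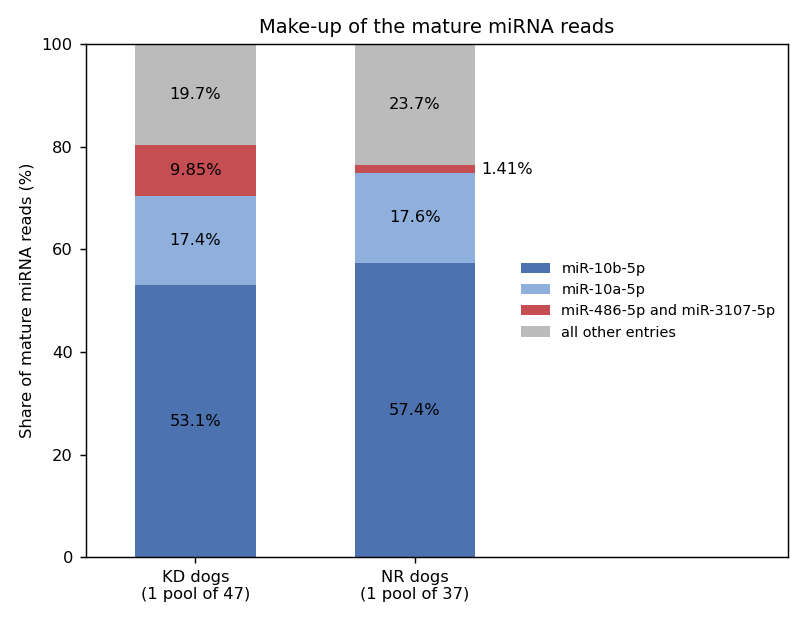
Share of the mature miRNA reads (%, y axis) in the pooled library of KD dogs (left) and NR dogs (right), divided into miR-10b-5p, miR-10a-5p, the summed miR-486-5p and miR-3107-5p entries and all other entries. The summed pair takes 9.85% in KD dogs and 1.41% in NR dogs.

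On shares, 11 of the 100 entries were more than 2-fold higher in KD dogs (11% of those compared) and 24 were more than 2-fold lower (24%). For 7 of the 11 higher entries and 15 of the 24 lower ones the counting interval left out no change. The interval lay above 0 for 10 entries and below 0 for 29, whatever the fold, and it included 0 for 61. The median log2 change was -0.21, with quartiles at -0.99 and 0.41. The changes ranged up to 2.98 for miR-3107-5p and down to -3.02 for miR-29a-3p. The order of the entries by reads was alike in the libraries, with a Spearman correlation of 0.794 over the 100 entries, given as a description. The changes went with neither high nor low GC content, with a Spearman correlation of 0.04 over the same entries.

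**Figure D2:**
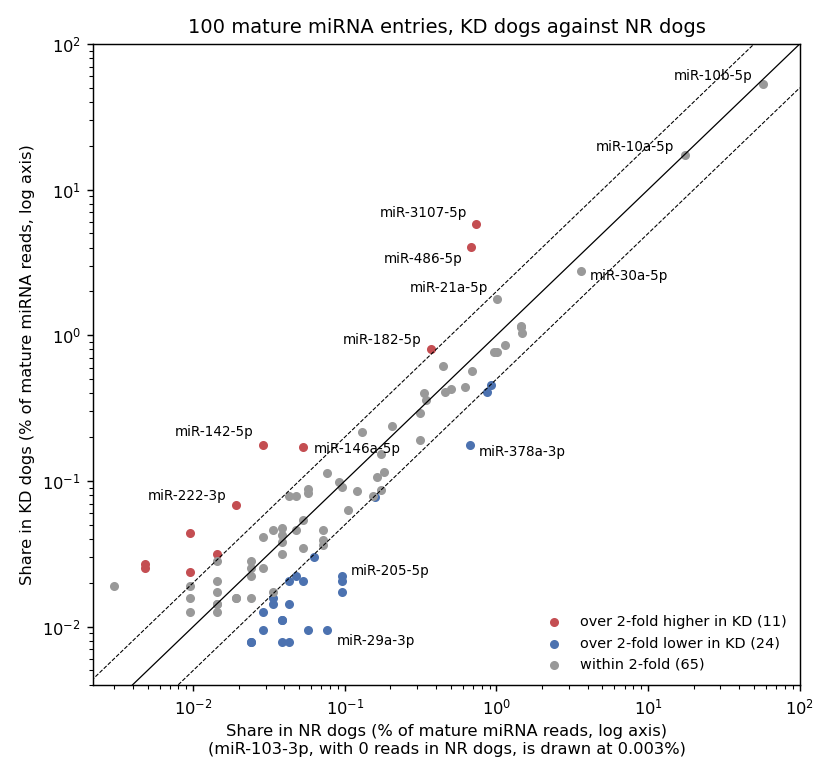
Share of the mature miRNA reads in KD dogs (y axis) against that in NR dogs (x axis) for the 100 entries, both in % on log axes. The solid line marks equal shares and the dashed lines a 2-fold difference, with 11 entries called above the upper dashed line and 24 under the lower one. miR-103-3p, with 0 reads in NR dogs, is drawn at 0.003% on the x axis and is not among the 11.

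The counting error set how far single entries could be read. Of 56 entries with 10 to 49 summed reads, 26 were past 2-fold but only 13 had an interval that left out 0, and the median width of their intervals was 3.32 on the log2 scale. Of 30 entries with at least 50 but under 500 reads, 6 were past 2-fold and 13 had such an interval. Of 14 entries with at least 500 reads, 3 were past 2-fold and 13 had such an interval, with a median width of 0.44. Just inside the limit of 10 reads stood miR-292-5p and miR-342-3p with 5 reads in KD dogs and 5 in NR dogs each, and miR-31-5p with 8 in KD dogs and 2 in NR dogs. Just outside it stood 5 entries with 9 reads, such as miR-125b-2-3p with 7 reads in KD dogs and 2 in NR dogs and miR-381-3p with 8 in KD dogs and 1 in NR dogs. The entries at the limit were named after their values were seen.

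The scale moved every entry by 1 constant, and with it the balance of higher and lower entries. On the deposited normalized values the log2 changes were all larger by 1.23, the median was 1.02, and 50 entries were higher (50%) and 5 lower (5%) by more than 2-fold. On read counts they were larger by 1.60, with 64 entries higher and 1 lower. With TMM factors from edgeR they were larger by 0.40, with 19 higher and 14 lower and a median of 0.19. The median of ratios from DESeq2 gave a shift of 0.38 and the same counts. Without miR-10a and miR-10b in the total the shift was -0.24, with 9 higher and 29 lower. Without miR-486 and miR-3107 it was 0.13, with 14 higher and 17 lower. Relative to the median of all entries, which no scaling alters, 15 entries stood more than 1 log2 unit above and 16 more than 1 below. Of the 100 entries, 31 were higher in KD dogs under all 7 scalings, 10 were lower under all 7, and 59 changed direction with the scaling. The 7 entries of the first set of sequences were higher beyond their intervals under all 7. No entry was lower beyond its interval under all 7, but miR-29a-3p, miR-378a-3p and miR-470-5p were under every scaling other than read counts.

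**Figure D3:**
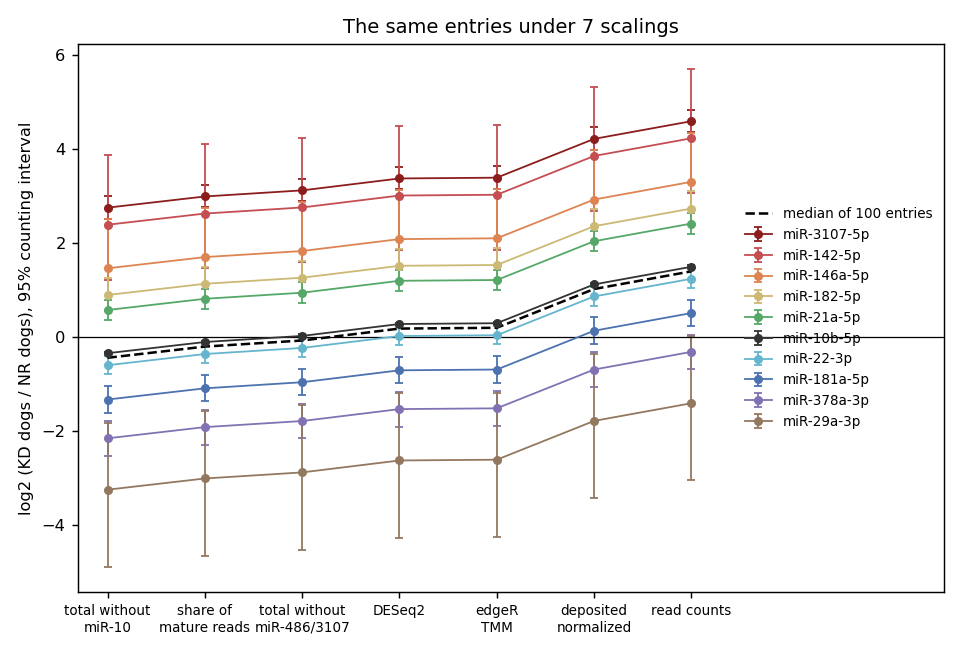
log2 change of KD dogs over NR dogs (y axis) for 10 entries and the median of the 100 entries under 7 scalings (x axis), with bars for the 95% counting interval. All lines run in parallel, the median moves between -0.45 and 1.39, and miR-3107-5p, miR-142-5p, miR-146a-5p, miR-182-5p and miR-21a-5p stay above 0 throughout.

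The entries with the miR-486 sequence had the largest changes among those with at least 500 summed reads. miR-486-5p, which lies in the Ank1 gene of the mouse and belongs to red blood cells and to muscle (chromosome 8, plus strand), had 2564 reads in KD dogs and 142 in NR dogs, a log2 change of 2.57 (2.33 to 2.83). miR-3107-5p, on the opposite strand of the same locus from 23142627 to 23142648, had 3674 reads in KD dogs and 153 in NR dogs, a log2 change of 2.98 (2.75 to 3.23). The identical letters do not allow a read to be given to one of them, so the sum is the firmer value. It was 6238 reads in KD dogs and 295 in NR dogs, 6.97-fold higher in KD dogs, with a log2 change of 2.80 (2.63 to 2.97) on shares and 4.03 on the deposited normalized values. The split of the pair was nonetheless unequal, with 1.43 reads of miR-3107-5p per read of miR-486-5p in KD dogs and 1.08 in NR dogs. The ratio of these ratios was 1.33 (1.04 to 1.69), and how reads with several places were counted is not stated.

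Other miRNAs of the red cell list did not share the size of this change. miR-451a, which is made in maturing red blood cells, had 20 reads in KD dogs and 8 in NR dogs, a log2 change of -0.28 (-1.52 to 1.11). This value turned with the scaling, and it was 0.95 on the deposited normalized values. miR-144-3p, transcribed together with miR-451a, had 0 reads in both libraries. The other arm of the precursor, miR-486-3p, had 50 reads in KD dogs and 10 in NR dogs, a log2 change of 0.72 (-0.28 to 1.87). Counted on the miR-486 entries alone, the 5p arm made up 98.1% of the reads in KD dogs and 93.4% in NR dogs. The odds ratio was 3.61 (1.60 to 7.39). Reads placed on miR-3107-5p, with the same letters, are left out of it, so it depends on how reads were assigned. Of the 7 entries of the red cell list in the table, 4 had 10 reads, of which 2 were more than 2-fold higher and 0 lower, while over all 100 entries 11% were higher and 24% lower. The 2 higher entries are miR-486-5p and miR-3107-5p, 1 sequence listed under both names, and they also set the list's median of 1.65, against -0.21 for all entries. Over the 3 red cell markers, 2 had reads, and they summed to 4.08% of the reads in KD dogs and 0.718% in NR dogs, nearly all of it miR-486-5p. The reads placed on miR-3107-5p are not in that sum. The part of red blood cells in the miR-486 value was not tested. Muscle is a further source of miR-486, and its part in the value was not tested either. The skeletal muscle markers miR-1a-3p, miR-133a-3p and miR-206-3p were at 0 in both libraries. For each marker that allows up to 0.00474% of the reads in KD dogs and 0.0144% in NR dogs.

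Among miRNAs of leukocytes and of inflammatory signalling, miR-142-5p and miR-146a-5p held larger shares in KD dogs. miR-142-5p, a miRNA of blood-forming cells (chromosome 11, 87756867 to 87756887), had 112 reads in KD dogs and 6 in NR dogs, a log2 change of 2.62 (1.45 to 4.10). miR-146a-5p, which restrains NF-kappaB signalling (chromosome 11, 43374435 to 43374456), had 108 reads in KD dogs and 11 in NR dogs, a log2 change of 1.69 (0.80 to 2.74). Its relative miR-146b-5p, with the same seed and the differences G18A and T21C, had 11 reads in KD dogs and 3 in NR dogs, and its interval of -1.65 to 2.75 covered both directions. miR-342-3p, at the limit of 10 reads, had a log2 change of -1.60 (-3.72 to 0.52). Of the 14 entries of the leukocyte list, 8 had a read and 4 had 10 reads, of which 2 were higher and 1 lower by more than 2-fold, against 11% and 24% of all 100 entries. The summed reads of the list were 248 in KD dogs and 27 in NR dogs, a log2 change of 1.60 (1.02 to 2.23), above 0 under all 7 scalings. Most of these reads in both libraries were those of miR-142-5p and miR-146a-5p. The intervals of the other 2 entries with 10 reads included 0, so the sum does not show a change of the whole list.

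The leukocyte markers used to check for cell types were sparser. miR-223-3p of myeloid cells had 7 reads in KD dogs and 0 in NR dogs, and miR-150-5p of lymphocytes had 3 in KD dogs and 0 in NR dogs, so neither reached the limit of 10 reads. miR-142-3p, the other arm of the miR-142 precursor, was at 0 in both libraries. Over the 4 markers, 3 had reads in KD dogs, and they summed to 0.193% of the reads in KD dogs and 0.0287% in NR dogs. The part of leukocytes in the values of miR-142-5p and miR-146a-5p was not tested.

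Further higher entries were miR-182-5p and miR-222-3p, of small genomic clusters, and miR-92b-3p. miR-182-5p, clustered with miR-183 and miR-96 and expressed in sensory organs and epithelia (chromosome 6, 30165962 to 30165986), had 510 reads in KD dogs and 77 in NR dogs, a log2 change of 1.13 (0.78 to 1.49). Its neighbour miR-183-5p had 9 reads in KD dogs and 3 in NR dogs, a log2 change of -0.02 (-2.02 to 2.51), and at this depth no difference between the neighbours can be read. miR-222-3p, which targets the cell cycle inhibitor Cdkn1b, had 43 reads in KD dogs and 4 in NR dogs, a log2 change of 1.82 (0.36 to 3.76). Its cluster partner miR-221-3p, with the same seed and on chromosome X in both cases, had 17 reads in KD dogs and 1 in NR dogs, a log2 change of 2.49 (-0.19 to 7.87). With the 5p arm included, this cluster had 63 reads in KD dogs and 5 in NR dogs, a log2 change of 2.05 (0.76 to 3.73), and it stayed above 0 under all 7 scalings. miR-92b-3p, a paralog of the miR-17-92 family with the differences T10C and G21C from miR-92a-3p, had 28 reads in KD dogs and 2 in NR dogs, a log2 change of 2.21 (0.22 to 5.32). miR-92a-3p itself, read mainly from chromosome 14, had 227 reads in KD dogs and 72 in NR dogs, a log2 change of 0.06 (-0.33 to 0.46). The miR-17-92 family as a whole had 331 reads in KD dogs and 93 in NR dogs, a log2 change of 0.23 (-0.11 to 0.58), which was -0.01 without miR-10a and miR-10b in the total.

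**Figure D4:**
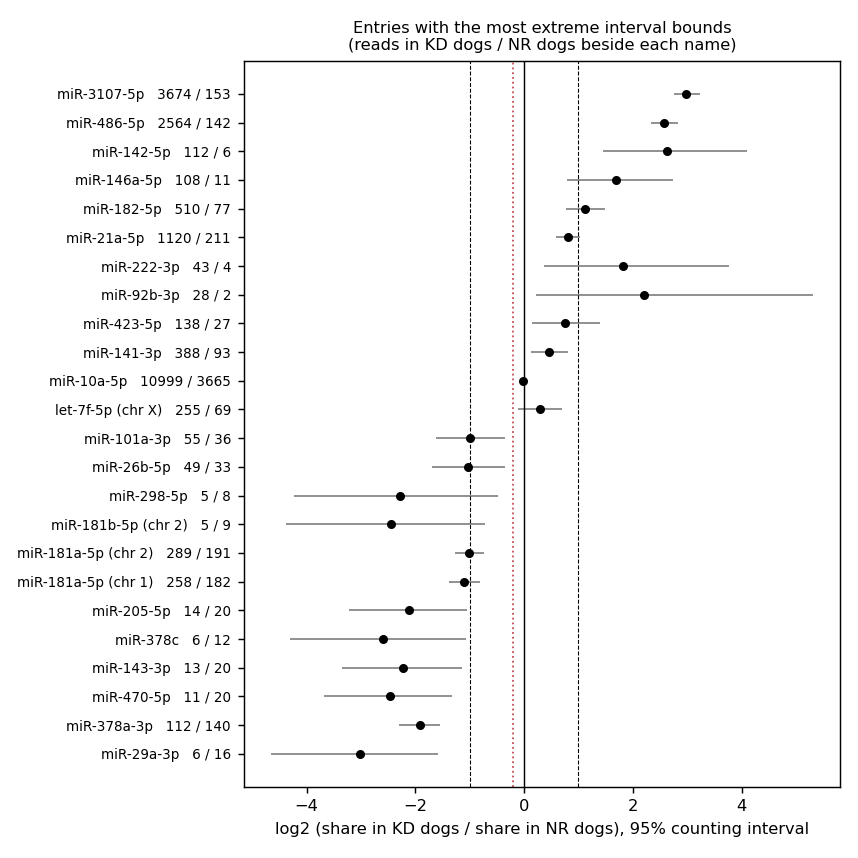
log2 of the share in KD dogs over that in NR dogs (x axis) with its 95% counting interval for the 12 entries with the highest lower bound and the 12 with the lowest upper bound, with the reads in KD dogs and NR dogs beside each name. Dashed lines mark 2-fold and the dotted line the median of -0.21 over the 100 entries, and miR-142-5p, miR-486-5p and miR-3107-5p have intervals wholly above the upper dashed line.

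miRNAs linked to kidney fibrosis did not move together. miR-21a-5p, which promotes fibrosis in mouse models of kidney injury (chromosome 11, 86584120 to 86584141), had 1120 reads in KD dogs and held 1.77% of the reads there, against 1.01% in NR dogs, a log2 change of 0.81 (0.59 to 1.03). It was past 2-fold on the deposited normalized values, at 2.03, and stood 1.02 above the median of all entries. miR-29a-3p, a repressor of collagen genes (chromosome 6, 31062673 to 31062694), had 6 reads in KD dogs and 16 in NR dogs, a log2 change of -3.02 (-4.66 to -1.59). The reads of miR-29a-3p, miR-29b-3p and miR-29c-3p, with 1 seed, summed to 11 in KD dogs and 18 in NR dogs. The log2 change of this sum was smaller, at -2.31 (-3.54 to -1.15), and the sum was named after its values were seen. miR-22-3p had 717 reads in KD dogs and 305 in NR dogs, a log2 change of -0.37 (-0.56 to -0.17), but it was 0.86 on the deposited normalized values. The summed fibrosis list had 1855 reads in KD dogs and 536 in NR dogs, a log2 change of 0.19 (0.05 to 0.33), which was -0.05 without miR-10a and miR-10b in the total. Of the 10 entries in that list, 6 had reads and 3 had 10 reads, of which 0 were higher and 1 lower by more than 2-fold, close to the 11% higher and 24% lower over all entries.

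Among the epithelial miRNAs of the miR-200 family, which repress Zeb1 and Zeb2 and keep cells epithelial, only miR-141-3p had a larger share in KD dogs. It had 388 reads in KD dogs and 93 in NR dogs, a log2 change of 0.46 (0.13 to 0.80). Its neighbour miR-200c-3p on chromosome 6 had 14 reads in KD dogs and 10 in NR dogs, a log2 change of -1.12 (-2.39 to 0.22). The cluster of miR-200a, miR-200b and miR-429 on chromosome 4 had 130 reads in KD dogs and 65 in NR dogs, a log2 change of -0.60 (-1.04 to -0.15). miR-141-3p therefore lay above 0 on shares and the other members under it, and on the deposited normalized values, larger by 1.23, all of them lay above it. Within the chromosome 4 cluster miR-200b-3p had 73 reads in KD dogs and 38 in NR dogs, and miR-200a-3p had 29 in KD dogs and 15 in NR dogs. miR-205-5p of stratified and urinary epithelium (chromosome 1, 193507503 to 193507524) had 14 reads in KD dogs and 20 in NR dogs, a log2 change of -2.12 (-3.21 to -1.06), and it was lower under all 7 scalings. miR-203-3p of the same kind of epithelium had 56 reads in KD dogs and 12 in NR dogs, with an interval of -0.30 to 1.66. The 7 entries of the epithelial list with 10 reads held 0 that were higher and 2 that were lower by more than 2-fold, near the shares of 11% and 24% over all entries, with a median of -0.65. All 6 epithelial markers had reads, and they summed to 0.852% of the reads in KD dogs and 0.896% in NR dogs. miR-200c-3p and miR-429-3p were named after their values were seen.

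The summed miRNAs of the kidney tubule lay near the median of all entries. Among the entries with 10 reads, only a copy of miR-194-5p lay above 0 on shares. miR-192-5p, enriched in the kidney cortex and gut, had 737 reads in KD dogs and 304 in NR dogs, a log2 change of -0.32 (-0.52 to -0.13). It was 0.90 on the deposited normalized values and -0.11 relative to the median of all entries. miR-215-5p, with the same seed, had 19 reads in KD dogs and 13 in NR dogs, a log2 change of -1.05 (-2.15 to 0.09). miR-204-5p had 40 reads in KD dogs and 22 in NR dogs, a log2 change of -0.74 (-1.52 to 0.08). The copies of miR-194-5p summed to 24 reads in KD dogs and 11 in NR dogs, a log2 change of -0.48 (-1.56 to 0.70), although the single entries pointed apart, at 1.31 for the one on chromosome 1 and -1.60 for the one on chromosome 19. The identical copies cannot be told apart by their reads. The tubule list had 821 reads in KD dogs and 350 in NR dogs, a log2 change of -0.37 (-0.55 to -0.19), and it was above 0 on the deposited normalized values, on read counts and with edgeR and DESeq2. Of its 5 entries with 10 reads, 1 was higher and 2 were lower by more than 2-fold, against 11% and 24% over all entries. The higher one is the chromosome 1 copy of miR-194-5p, and for 3 of the 5 the interval included 0. The 3 markers of the proximal tubule summed to 1.26% of the reads in KD dogs and 1.61% in NR dogs.

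**Figure D5:**
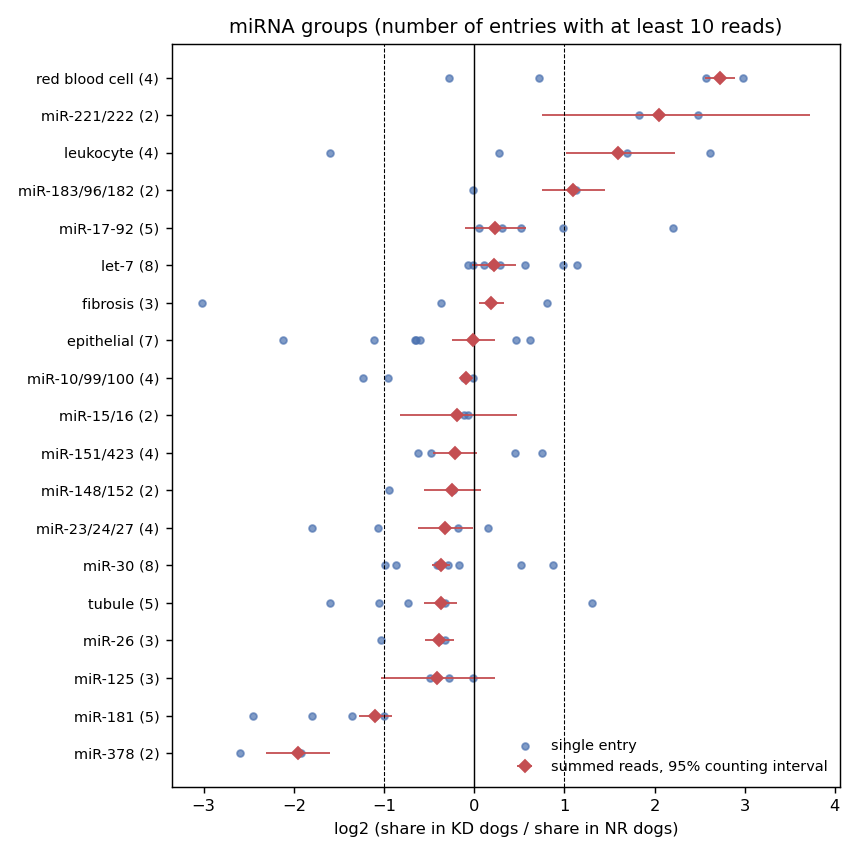
log2 of the share in KD dogs over that in NR dogs (x axis) for miRNA groups with at least 2 entries of 10 or more reads. Blue points are single entries, and red diamonds are the summed reads of the whole group with a 95% counting interval, which lie between 2.73 for the red cell list and -1.95 for the miR-378 family.

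Some families were more than 2-fold lower on shares in every member that reached 10 reads. The miR-181 family, known from lymphocyte development, had 5 such entries, all of them more than 2-fold lower in KD dogs and all with an interval below 0. Over all 100 entries, 24% were more than 2-fold lower and 29 had an interval below 0. miR-181a-5p had 289 reads in KD dogs and 191 in NR dogs on chromosome 2, a share that was 2.01-fold lower in KD dogs (log2 interval -1.27 to -0.73). On chromosome 1 it held 0.407% of the reads in KD dogs and 0.872% in NR dogs, a log2 change of -1.10 (-1.38 to -0.82). The copies of miR-181b-5p summed to 12 reads in KD dogs and 17 in NR dogs, a log2 change of -2.10 (-3.30 to -0.95). Family reads were 576 in KD dogs and 406 in NR dogs, a log2 change of -1.10 (-1.28 to -0.91), which turned to 0.13 on the deposited normalized values and 0.50 on read counts. Relative to the median of all entries miR-181a-5p stood at -0.79 and -0.89. The copies of 1 sequence and the members of a cluster are not independent entries.

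miR-378a-3p, whose precursor lies in an intron of Ppargc1b, a regulator of mitochondrial metabolism, had 112 reads in KD dogs and 140 in NR dogs, a log2 change of -1.92 (-2.29 to -1.56). It was the only entry with at least 50 summed reads that had fewer reads in the deeper KD library, and it was lower under all 7 scalings. miR-378c, with the same seed, had 6 reads in KD dogs and 12 in NR dogs, a log2 change of -2.60 (-4.30 to -1.08). miR-143-3p, a miRNA of smooth muscle, had 13 reads in KD dogs and 20 in NR dogs, a log2 change of -2.22 (-3.35 to -1.14), and it was the only 1 of 13 entries of the mesenchymal list with reads. miR-470-5p, from an X-linked cluster described in mouse testis (chromosome X, 66813995 to 66814017), had 11 reads in KD dogs and 20 in NR dogs, a log2 change of -2.46 (-3.67 to -1.33). miR-298-5p, of an imprinted mouse cluster, had 5 reads in KD dogs and 8 in NR dogs. The miR-290-295 cluster of mouse embryonic stem cells, taken over 7 entries, had 22 reads in KD dogs and 17 in NR dogs, a log2 change of -1.23 (-2.21 to -0.23), which was lower in KD dogs on shares and, with a shift of 1.23, near 0 on the deposited normalized values. That cluster was named after its values were seen.

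Abundant families other than these changed little. The miR-10/99/100 family had 44688 reads in KD dogs and 15685 in NR dogs, a log2 change of -0.09 (-0.12 to -0.07), and 1.13 on the deposited normalized values. Within it miR-99b-5p had 50 reads in KD dogs and 32 in NR dogs, a log2 change of -0.96 (-1.63 to -0.27). The miR-30 family of kidney epithelium had 2875 reads in KD dogs and 1221 in NR dogs, a log2 change of -0.37 (-0.46 to -0.27). It had 0 of its 8 entries past 2-fold, while 65 of all 100 entries were within 2-fold. miR-30a-5p, its most abundant member, had 1749 reads in KD dogs and 756 in NR dogs. The miR-26 family had 1027 reads in KD dogs and 443 in NR dogs, a log2 change of -0.39 (-0.55 to -0.22). All 3 miR-26 entries had an interval below 0 on shares, and 1 of them was more than 2-fold lower. Both families were above 0 on the deposited normalized values, at 0.86 for miR-30 and 0.84 for miR-26. miR-191-5p had 658 reads in KD dogs and 307 in NR dogs, a log2 change of -0.50 (-0.70 to -0.30), and it was 0.72 on the deposited normalized values.

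The let-7 family, regulators of differentiation with 1 shared seed, had 640 reads in KD dogs and 181 in NR dogs, a log2 change of 0.22 (-0.02 to 0.47), which was -0.02 without miR-10a and miR-10b in the total. All 8 entries with 10 reads had intervals that included 0, as did 61 of all 100 entries compared. Among the 8 are copies of let-7a-5p and of let-7f-5p, each with 1 sequence, which are not independent entries. let-7f-5p on chromosome X was the most abundant, with 255 reads in KD dogs and 69 in NR dogs, a log2 change of 0.28 (-0.10 to 0.69). let-7b-5p had 20 reads in KD dogs and 3 in NR dogs, a log2 change of 1.14 (-0.62 to 3.53), so that its share was past 2-fold but not beyond the counting error. Another list held the miRNAs of the RT-qPCR panel for cats. Of its 16 entries with 10 reads, 3 were higher and 2 lower by more than 2-fold in KD dogs, against 11% and 24% over all entries, with a median of -0.06. The 2 lower ones are the copies of miR-181a-5p, which share 1 sequence. The study chose that panel partly on the cat libraries of the same series.

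The remaining entries had smaller or less certain changes. miR-423-5p had 138 reads in KD dogs and 27 in NR dogs, a log2 change of 0.75 with a lower bound of 0.15. The change of miR-423-5p was above 0 under all 7 scalings, but its lower bound was -0.09 without miR-10a and miR-10b in the total. Its other arm miR-423-3p had 29 reads in KD dogs and 7 in NR dogs, with an interval of -0.77 to 1.88. Of the arms of miR-151, miR-151-3p had 281 reads in KD dogs and 129 in NR dogs, a log2 change of -0.48 (-0.78 to -0.17). miR-101a-3p had 55 reads in KD dogs and 36 in NR dogs, a log2 change of -0.99 (-1.62 to -0.34), and miR-26b-5p had 49 in KD dogs and 33 in NR dogs, a log2 change of -1.03 (-1.70 to -0.35). Both were above 0 on the deposited normalized values. miR-23a-3p and miR-23b-3p, which differ by T19A, summed to 20 reads in KD dogs and 17 in NR dogs, a log2 change of -1.37 (-2.37 to -0.34). miR-27a-3p and miR-27b-3p, which sit beside them in the genome, summed to 284 reads in KD dogs and 104 in NR dogs, a log2 change of -0.15 (-0.48 to 0.19). miR-16-5p, summed over its copies, had 72 reads in KD dogs and 25 in NR dogs, a log2 change of -0.08 (-0.75 to 0.64). miR-411-5p of the imprinted Dlk1-Dio3 region had 16 reads in KD dogs and 1 in NR dogs, a ratio whose log2 interval ran from -0.29 to 7.79, and it was picked out after seeing its values. The miRNAs of that stretch of chromosome 12 around miR-411, taken over 10 entries, had 39 reads in KD dogs and 15 in NR dogs, a log2 change of -0.22 (-1.11 to 0.74). On the deposited normalized values, larger by 1.23, the sums of miR-27, of miR-16 and of this stretch lay above 0, and that of miR-23 still lay under it.

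Ratios of miRNAs within a library do not depend on the scaling. The ratio of miR-21a-5p to let-7b-5p was 56.0 in KD dogs and 70.3 in NR dogs, and the first over the second was 0.796 with an interval of 0.150 to 2.72. That of miR-181a-5p to let-7b-5p was 27.4 in KD dogs and 124.3 in NR dogs, a ratio of 0.220 (0.0416 to 0.750), and it rests on 3 let-7b-5p reads in NR dogs. miR-181a-5p to miR-10b-5p was 0.0163 in KD dogs and 0.0311 in NR dogs, a ratio of 0.523 (0.456 to 0.599). miR-21a-5p to miR-22-3p was 1.56 in KD dogs and 0.692 in NR dogs, a ratio of 2.26 (1.84 to 2.77). miR-26a-5p to miR-191-5p was 1.49 in KD dogs and 1.34 in NR dogs, a ratio of 1.11 whose interval of 0.928 to 1.33 covered no difference. miR-10a-5p to miR-10b-5p was 0.327 in KD dogs and 0.306 in NR dogs, a ratio of 1.07 (1.02 to 1.12). The 7 ratios included that of miR-3107-5p to miR-486-5p above, and their intervals are not adjusted for their number.

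Some miRNAs of other tissues were not detected at this depth. The liver miRNA miR-122-5p, the neuronal miR-124-3p and the endothelial miR-126a-3p were at 0 in both libraries, which allows up to 0.00474% of the reads in KD dogs and 0.0144% in NR dogs. Other members of the neural and endothelial lists did have a few reads. The neuronal marker miR-9-5p had 1 read in KD dogs and 1 in NR dogs. The neural list summed to 7 reads in KD dogs and 5 in NR dogs, and the endothelial list to 3 in KD dogs and 1 in NR dogs. Among entries with reads in 1 dog library, miR-103-3p had 12 in KD dogs and 0 in NR dogs, which is at least 1.32-fold higher in KD dogs with the 0 read as 3 reads. The counting interval of that value reaches down to -0.13 on the log2 scale and so includes no change. Its copy of the same sequence did have reads in NR dogs, and the copies summed to 15 reads in KD dogs and 2 in NR dogs, a log2 change of 1.31 (-0.80 to 4.48).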

How the data were processed

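Total RNA of pooled UExos was made into small RNA libraries, and the authors trimmed adaptors, aligned the reads to the mouse genome (mm10) and counted them over mouse miRNA features. The submitters' processing notes name CASAVA 1.8.2 and Bowtie 1.0.0. The deposited table holds raw read counts and log2 normalized values (TMM, by the authors). In each dog library the deposited log2 value was log2 of the count plus 1 constant, with 31 entries of KD dogs and 47 of NR dogs that have reads written as 0 because the result fell below 0. Normalized levels were therefore computed as the count times 0.531 in KD dogs and 0.689 in NR dogs. Dog miRNAs that do not share the mouse letters may have lost reads in this step, and how reads with several places were counted is not stated.

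Shares of all mature reads were the main scale, for entries with at least 10 summed reads, with exact 95% intervals (scipy 1.17.1, numpy 2.4.6, pandas 2.3.3, Python 3.11.15). Other scalings used the deposited factors, read counts, edgeR 4.0.16, DESeq2 1.42.0 (R 4.3.3) and totals without the miR-10 or miR-486 entries. With 1 library per group no SD, p-value or test is given. Named entries were the 12 with the highest lower bound, the 12 with the lowest upper bound, the 10 most abundant per dog library, the RT-qPCR panel and up to 4 per list of miRNAs; others are said to be named after their values were seen. The members and lists were chosen with earlier results of these data known. Of the 90 mature names, 79 matched a dog miRNA gene in RefSeq (names only), and miR-3107-5p, miR-470-5p, miR-378c, miR-298-5p, miR-423-5p and the miR-290-295 entries named here are among the 11 that did not. The methods were tested on simulated data, 4 emptied lines of the table are not analysed here, and figures were drawn with matplotlib 3.10.9.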

Additional observations from a re-analysis of the deposited data

Results flagged for a closer look

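One result stood out because its direction differed between dogs and cats past 2-fold on shares and on the deposited normalized values, beyond the counting intervals. miR-142-5p had 112 reads in KD dogs and 6 in NR dogs, while it had 62 reads in KD cats and 415 in NR cats. On shares the log2 change was 2.62 (1.45 to 4.10) in dogs and -3.09 (-3.50 to -2.70) in cats, a dog minus cat difference of 5.71. The difference was not tested, since each group is 1 library. The median over the entries also differed on this scale, at -0.21 in dogs and -1.83 in cats, though single entries such as miR-10b-5p lay higher in cats. On the deposited normalized values the changes were 3.85 in dogs and -1.72 in cats. Of 80 entries with at least 10 reads in each species, 3 went opposite ways past 2-fold beyond their intervals on shares. Of those 3, miR-142-5p alone did so on the deposited values as well. Other entries did so on the deposited values only. Among them were miR-21a-5p, at 2.03 in dogs and -1.01 in cats, and miR-470-5p, at -1.24 in dogs and 2.48 in cats.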

How the results depend on the processing

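No paired analysis was possible because each group is 1 pooled library. The 11 entries higher in KD dogs became 50 on the deposited normalized values, 64 on read counts, 19 with edgeR, 19 with DESeq2, 5 with at least 50 reads, 19 at a fold of 1.5 and 7 when the interval also had to leave out no change. The 24 lower entries became 5, 1, 14 and 14 under the first 4 of these, 83 with no filter, 4 with at least 50 reads, 14 at a fold of 3 and 15 with the interval. With no filter, entries of 1 to 9 reads are added, and a 0 in either library is read as 3 reads. As the NR library is shallower, this puts entries read only in KD dogs among the lower ones. An example is miR-150-5p, with 3 reads in KD dogs and 0 in NR dogs. The 83 lower entries and the median with no filter therefore depend on this reading of 0. The median of -0.21 became 1.02 on the deposited values, 1.39 on read counts, 0.19 with edgeR, 0.17 with DESeq2, -0.45 without miR-10a and miR-10b in the total, -0.080 without miR-486 and miR-3107, -0.60 with no filter and -0.31 with 1 read added. The log2 change of the summed miR-486 and miR-3107 entries was 2.80, and it became 4.03, 4.40, 3.20, 3.18 and 2.56 under the first 5 scalings in that order.

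On the deposited values and on read counts, in that order, the direction turned for miR-181a-5p on chromosome 2 (0.22 and 0.60) and chromosome 1 (0.13 and 0.50), miR-26b-5p (0.19 and 0.57), miR-215-5p (0.17 and 0.55), miR-23b-3p (0.15 and 0.53), the miR-181 family (0.13 and 0.50) and the neural list (0.11 and 0.49). On read counts alone it turned for miR-181c-5p (0.24) and miR-99a-5p (0.36). These are the lists and the entries named by rule that were past 2-fold on shares. The rule left out other such entries, among them miR-200c-3p, miR-295-3p and miR-340-5p, which lay above 0 on the deposited values (0.11, 0.14 and 0.04), and 59 entries of any size changed sign across scalings. A shift of scale is 1 constant for all entries, so all of these follow from the constant.

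Depth limits entries with under 50 summed reads most. The counting intervals do not cover differences between dogs, pooling or library preparation, and pool sizes and the deposited totals differ between the groups. Dog reads placed on mouse sequences, and copies of 1 sequence with unequal counts, limit values of single entries.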
